A study of Mus musculus with 28 samples.

Results

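Cyclooxygenases and the enzymes around them turn arachidonic acid into eicosanoids, and 8 mouse genes of this kind were searched by name: *Ptgs1*, *Ptgs2*, *Ptges2*, *Ptges3*, *Tbxas1*, *Alox5ap*, *Lta4h* and *Hpgds*. A row was taken where any of its names was one of the 8. The RNA table of 3147 genes held 7 of them, each in a row of its own, and the ribosome footprint table of 6250 genes held 6. *Hpgds*, the haematopoietic prostaglandin D synthase, matched no row in either table, and footprints of *Ptgs2* are not analysed here. Rows were matched on names alone, while the 8 names were chosen with earlier results of these data known.

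Arachidonic acid is released from membrane phospholipids by phospholipase A2. PTGS1 (COX-1) and PTGS2 (COX-2) convert it to prostaglandin H2, from which terminal synthases make prostaglandin E2, thromboxane A2 and other prostanoids; COX-1 is usually described as the constitutive enzyme and COX-2 as the one induced by inflammatory signals. In the other branch, 5-lipoxygenase acts on arachidonic acid presented by its activating protein, ALOX5AP, and LTA4H hydrolyses leukotriene A4 to leukotriene B4. In dendritic cells, prostaglandin E2 and leukotrienes are known to affect maturation and migration.

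The study followed dendritic cells grown from the bone marrow of female C57BL/6J mice aged 6 to 8 weeks with GM-CSF at 20 ng/ml. On day 9 they were stimulated with lipopolysaccharide (LPS; 100 ng/ml, rough, ultrapure, from *E. coli* K12), which activates Toll-like receptor 4, or mock-stimulated, which here means no stimulation. RNA came from 2 libraries at 0 h and from 2 per arm at each of 1, 2, 4, 6, 9 and 12 h, 26 in all, and 2 further libraries hold ribosome footprints of un-stimulated cells. Per the series' design, cells had grown in a medium-label SILAC (isotope-labelled amino acid) medium that was exchanged for a heavy-label one at time 0, so the LPS and mock arms share that exchange and the 0 h libraries precede it. The cells were all those that were non-adherent or loosely bound on day 8, with no sort given. Libraries are numbered 1 and 2 in the labels, which do not say whether the numbers stand for separate mice or cultures, so p-values measure only the spread between these libraries.

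Values are in TPM, the number of transcripts of a gene per 1000000 listed, which are scaled by transcript length, so levels can be compared between genes; each library sums to 1000000 over the genes listed. Read depth is unknown, and no counting error could be given. Of the markers fixed for dendritic cells, 6 of 14 had an RNA row (*Itgax*, *Cd74*, *H2-Aa*, *H2-Ab1*, *Irf4* and *Csf2ra*), with summed levels of 9425 to 20743 TPM in the 14 libraries without LPS and 8080 to 21588 TPM in the 12 with LPS. Macrophage and monocyte markers were also present (8 RNA rows for 16 names, 11600 to 58472 TPM against 8345 to 40302 TPM with LPS), as were those of neutrophils (7 rows for 14 names, 2492 to 11097 TPM against 1165 to 8678 TPM) and eosinophils (5 rows for 10 names, 1285 to 3310 TPM against 680 to 2068 TPM). *Pf4* was the only platelet marker of 11 with an RNA row (680 to 1030 TPM without LPS and 551 to 1104 TPM with it). No marker of mast cells, T and NK cells or B cells had one. In such bulk RNA, fewer cells of a type and less RNA per cell cannot be told apart.

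The 2 cyclooxygenase genes moved in opposite directions, so the stretches upstream of their annotated starts are shown for comparison. They come from the RefSeq promoter table for GRCm38.p6, in which 7 of the 8 members were matched; *Alox5ap* was not. Positions count from the annotated start, with -1 the base just before it and 1 the first base of the transcript. Each line gives the 250 bases before the start on the gene's strand, 5′ to 3′, with matched motifs in capitals. In *Ptgs2*, chr1:150099781-150100030 on the plus strand, the capitals mark a GC box (GGGCGG) at -170 to -165 and a C/EBP palindrome (TTGCGCAA) at -69 to -62. In *Ptgs1*, chr2:36230176-36230425 on the plus strand, they mark a PU.1 motif (GAGGAAGT) at -24 to -17.
Ptgs2: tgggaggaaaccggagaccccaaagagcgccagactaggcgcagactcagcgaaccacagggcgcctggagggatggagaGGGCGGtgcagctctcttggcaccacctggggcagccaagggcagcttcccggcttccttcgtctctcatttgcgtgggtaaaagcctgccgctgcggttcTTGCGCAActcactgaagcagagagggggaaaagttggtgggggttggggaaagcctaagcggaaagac
Ptgs1: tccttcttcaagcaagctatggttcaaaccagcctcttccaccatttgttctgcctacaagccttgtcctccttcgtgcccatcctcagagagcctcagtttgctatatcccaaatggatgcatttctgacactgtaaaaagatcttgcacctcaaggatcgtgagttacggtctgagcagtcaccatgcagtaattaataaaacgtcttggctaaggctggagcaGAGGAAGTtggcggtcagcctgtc

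A further 30 bases of *Ptgs2*, chr1:150100033-150100062, lie just after its annotated start and hold a CRE motif (ACGTCA, bases 13 to 18) and an E-box (CACGTG, bases 17 to 22), which overlap by 2 letters, in capitals.
Ptgs2 site: agtcaccactACGTCACGTGgagtccgctt

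Searched on both strands in all 32851 windows of 300 bases (250 before and 50 after the start), the C/EBP palindrome was found in 0.183%, the PU.1 motif in 3.20%, the E-box in 7.15%, the CRE motif in 7.51% and the GC box in 35.7%. An NF-kB motif was found in 8.46% of windows and a TATA box (TATAAA) in 13.6%, and these letters were in the window of neither cyclooxygenase gene. Among the other members, *Ptges3* had an NF-kB match at -87 to -78 and 4 GC boxes, 1 of which overlaps it by 2 letters, *Ptges2* an E-box at -77 to -72, and *Tbxas1* 2 overlapping TATA box matches between -13 and -6. *Lta4h* had none of the 7 motifs, and *Hpgds* had a PU.1 match at -49 to -42. These are matches of letters only.

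*Ptgs2*, the inducible cyclooxygenase, was close to the bottom of the table in resting cells and rose with LPS at every time tested. At 0 h it stood at 1.64 and 0.449 TPM (library 1, then library 2), a mean level over only 0.0318% of all 3147 genes. Every listed gene reached at least 1 TPM in at least 2 libraries, so this rank is among detected genes only. In mock cells it lay between 0 and 9.65 TPM over 12 libraries, with a median of 2.78 TPM. One mock library, number 2 at 2 h, is listed at 0, 1 of 29 such values in the RNA table.

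With LPS it was 219 and 53.1 TPM at 1 h, 285 and 127 TPM at 2 h, 298 and 217 TPM at 4 h, 402 and 215 TPM at 6 h, 513 and 152 TPM at 9 h, and 662 and 231 TPM at 12 h. The LPS libraries did not overlap the mock libraries at any time, and the lowest of them was over the highest mock value. Library 1 was the higher of the pair in 13 of 13 groups, stimulated or not.

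On the log2(TPM + 1) scale, which understates changes from so low a level, *Ptgs2* was higher with LPS by 5.21 ± 1.05 (SE) at 1 h (limma, Benjamini-Hochberg adjusted p = 0.0071), 5.88 at 2 h (adjusted p = 9.3e-04), 5.97 at 4 h (adjusted p = 3.0e-04), 6.25 at 6 h (adjusted p = 1.7e-04), 5.82 at 9 h (adjusted p = 3.8e-04) and 6.82 at 12 h (adjusted p = 9.4e-05), all with the same SE. By size of rise it ranked 1st of 3147 genes at 1 h and between 9th and 13th at the later times. Its difference did not pass the test between late times (mean of 6, 9 and 12 h) and early times (mean of 1 and 2 h), at 0.75 ± 0.96 (adjusted p = 0.58). The 1 h call was lost in the fit without mock library 2 (4.69, adjusted p = 0.095).

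*Ptgs1*, the other cyclooxygenase, fell from 2 h onward to 1 of the largest declines in the table. At 0 h it was at 140 and 143 TPM. Mock cells held 129 and 148 TPM (1 h), 118 and 179 TPM (2 h), 139 and 129 TPM (4 h), 123 and 129 TPM (6 h), 96.3 and 97.6 TPM (9 h), and 85.1 and 99.8 TPM (12 h). In LPS cells it was at 105 and 139 TPM at 1 h, 64.4 and 75.0 TPM at 2 h, 29.1 and 25.5 TPM at 4 h, 15.3 and 16.3 TPM at 6 h, 8.44 and 12.2 TPM at 9 h, and 6.42 and 4.31 TPM at 12 h. The arms overlapped at 1 h and were apart at the 5 later times, with LPS lower.

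As a share of the mock mean, the LPS mean of *Ptgs1* was 87.7% at 1 h, 46.9% at 2 h, 20.3% at 4 h, 12.6% at 6 h, 10.6% at 9 h and 5.80% at 12 h. The log2 difference was -0.20 ± 0.23 (SE) at 1 h (adjusted p = 0.68) and -1.05 at 2 h (adjusted p = 0.0041), the earliest fall to pass the test among the members. It reached -2.26 at 4 h (adjusted p = 1.0e-06), -2.92 at 6 h (adjusted p = 3.3e-08), -3.14 at 9 h (adjusted p = 2.0e-08) and -3.89 at 12 h (adjusted p = 2.5e-09). At 12 h only 1 gene of 3147 had a larger fall. The 2 h call was lost in the fit without mock library 2 (-0.75, adjusted p = 0.086).

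**Figure D1:**
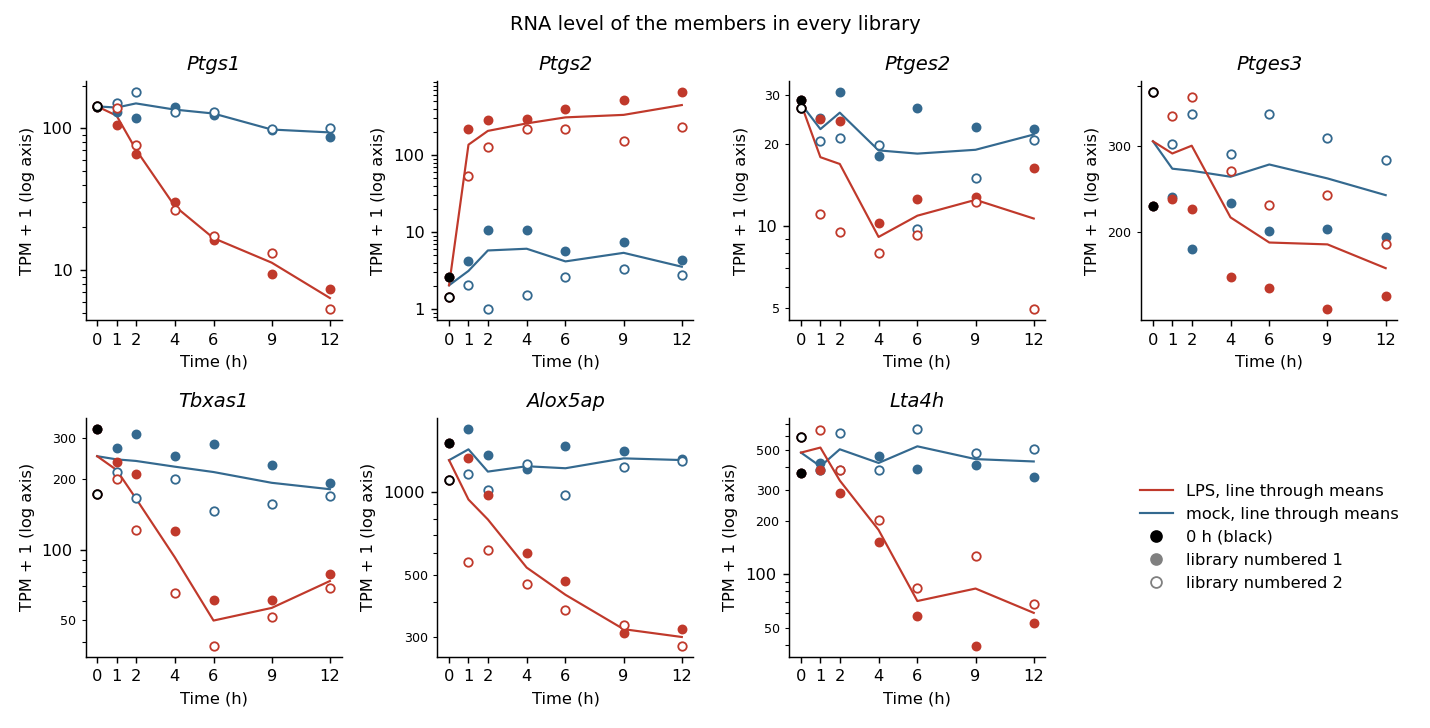
RNA level of the 7 measured members at 0 to 12 h, as TPM + 1 on a log axis that differs between panels; filled points are library 1, open points library 2, lines join group means, red is LPS, blue mock and black 0 h. *Ptgs2* rises from 1 h while *Ptgs1*, *Tbxas1*, *Alox5ap* and *Lta4h* separate downward from mock by 4 h, and the 2 libraries of a group often lie apart in a fixed order.

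Because both values are per length, the 2 cyclooxygenase RNAs can be added. *Ptgs2* made up 0% to 7.52% of their sum in the 14 libraries without LPS (median 2.04%) and 27.7% to 99.0% in the 12 libraries with LPS (median 91.9%). At 1 h the LPS libraries were at 67.6% and 27.7%, at 2 h at 81.5% and 62.8%, and at 4 h at 91.1% and 89.5%. By 12 h they stood at 99.0% and 98.2%, where *Ptgs2* was 103 and 53.6 times *Ptgs1*. The 2 groups of libraries did not overlap in this share at any time. The sum itself was 88.4 to 179 TPM without LPS (median 130 TPM) and 165 to 669 TPM with it (median 283 TPM); LPS library 2 at 9 h (165 TPM) was under the highest unstimulated value, while being over both mock libraries of its own time (103 and 99.96 TPM).

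**Figure D2:**
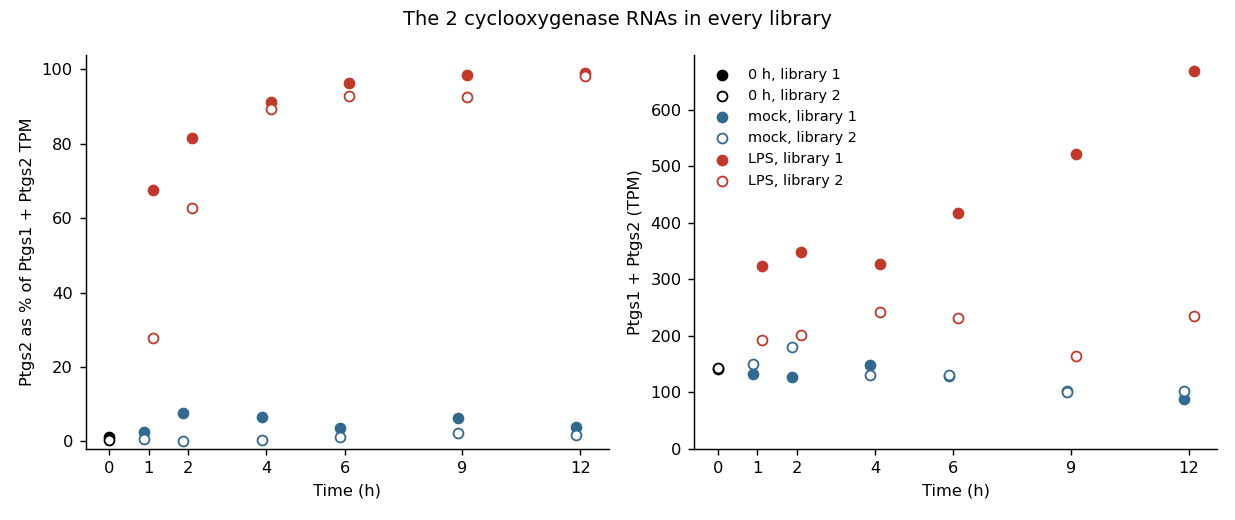
Left, *Ptgs2* as a percentage of *Ptgs1* plus *Ptgs2* TPM in each of 26 RNA libraries by time in hours; right, the sum in TPM. Points are single libraries (black 0 h, blue mock, red LPS; open points are library 2). The share passes 89% in both LPS libraries from 4 h and stays under 8% in every library without LPS.

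Of the 3 terminal prostanoid synthases with an RNA row, 1 fell and 2 did not pass the test at any time in the fit of all libraries without a replicate term. *Tbxas1*, thromboxane A synthase, was at 329 and 172 TPM at 0 h and at 146 to 313 TPM in mock libraries (median 207 TPM). LPS libraries were at 237 and 200 TPM at 1 h, 209 and 120 TPM at 2 h, 120 and 64.0 TPM at 4 h, 59.7 and 37.7 TPM at 6 h, 60.1 and 50.4 TPM at 9 h, and 77.6 and 67.1 TPM at 12 h. The arms overlapped at 1 and 2 h and were apart from 4 h. Its lowest mean, 48.7 ± 15.6 TPM (SD, n = 2), came at 6 h, against 214 ± 96.8 TPM in mock cells, and the 12 h mean was 72.4 ± 7.38 TPM, against 181 ± 17.5 TPM.

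For *Tbxas1* the log2 difference was -0.14 at 1 h and -0.52 at 2 h, neither past the test, and -1.35 ± 0.42 (SE) at 4 h (adjusted p = 0.017), -2.07 at 6 h (adjusted p = 7.7e-04), -1.76 at 9 h (adjusted p = 0.0031) and -1.31 at 12 h (adjusted p = 0.021). The level relative to mock was lowest at 6 h (22.7% of the mock mean) and higher again at 12 h (40.1%); the change between those times was not tested. Library 1 was the higher in 13 of 13 groups. The 4 h and 12 h calls rest on few libraries. Without mock library 1 the 4 h value was -1.19 (adjusted p = 0.11) and without LPS library 2 it was -0.90 (adjusted p = 0.20). At 12 h, leaving out any of the 4 libraries ended the call: -1.21 without mock library 1 (adjusted p = 0.11), -1.41 without mock library 2 (adjusted p = 0.060), -1.41 without LPS library 1 (adjusted p = 0.055) and -1.20 without LPS library 2 (adjusted p = 0.095).

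*Ptges2*, a membrane-associated prostaglandin E synthase, was weakly expressed. It stood at 27.9 and 25.9 TPM at 0 h, at 8.73 to 29.9 TPM in mock libraries (median 19.8 TPM) and at 3.97 to 23.6 TPM in LPS libraries (median 10.6 TPM). LPS was lower than mock without overlap at 4, 9 and 12 h and overlapped it at 1, 2 and 6 h. Of all genes, 58.2%, 47.9% and 49.3% were lower without overlap at 4, 9 and 12 h. Its log2 differences ran from -0.44 to -1.26 ± 0.56 (SE), and at 12 h, where the difference was largest, adjusted p was 0.087 (15.3 and 3.97 TPM with LPS, 21.6 and 19.6 TPM in mock). Without LPS library 1 the 12 h value was -2.12 and passed (adjusted p = 0.014). Library 1 was higher in 12 of 13 groups. With a replicate term in the fit, *Ptges2* was called lower at 4 and 12 h (limma, adjusted p = 0.027 and 0.011).

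*Ptges3*, known both as the cytosolic prostaglandin E synthase and as the Hsp90 co-chaperone p23, stayed at a high level in both arms. It was at 225 and 388 TPM at 0 h, at 183 to 350 TPM in mock libraries (median 258 TPM) and at 137 to 378 TPM in LPS libraries (median 224 TPM). The arms overlapped at every time except 12 h, where LPS (147 and 188 TPM) was just under mock (194 and 280 TPM). Log2 differences lay between -0.51 and 0.20 ± 0.43 (SE), and the F test over the 6 times gave adjusted p = 0.67. Library 2 was higher in 13 of 13 groups. Compared within each number, LPS was lower than mock from 4 h, at 76.1% and 64.8% of mock at 6 h. With a replicate term in the fit, *Ptges3* was called lower at 6, 9 and 12 h (limma, adjusted p = 0.0097, 0.015 and 0.013). The synthases *Ptges* and *Ptgds* are not analysed here.

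Since *Ptges3* is also a co-chaperone, 18 genes of Hsp90 and its partners were set beside it, of which 17 had an RNA row. Of these, 6 of 17 passed the F test (57.2% of all genes did). At 6 h, 1 rose and 4 fell (11.2% and 30.0% of all genes), and at 12 h, 1 rose and 3 fell (10.0% and 26.8%). The list's median log2 difference was -0.56 at 6 h and -0.01 at 12 h, against -0.44 and -0.39 over all genes. *Fkbp4*, an Hsp90-binding immunophilin, fell to 10.9 and 10.2 TPM at 6 h against 49.5 and 49.5 TPM in mock (-2.13 ± 0.34 SE, limma adjusted p = 9.0e-05). *Dnaja1*, an Hsp40 co-chaperone, rose to 102 and 122 TPM against 56.2 and 54.9 TPM (0.99 ± 0.20 SE, adjusted p = 7.1e-04). The Hsp90 genes themselves, *Hsp90aa1* and *Hsp90ab1*, did not pass the F test (adjusted p = 0.57 and 0.27).

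Both leukotriene members fell with LPS from 4 h. *Alox5ap*, the membrane protein that presents arachidonic acid to 5-lipoxygenase, was the most abundant member in resting cells, at 1496 and 1095 TPM at 0 h, over 95.4% of all genes in the table. In mock libraries it stayed between 968 and 1683 TPM (median 1270 TPM). With LPS it was at 1315 and 556 TPM at 1 h, 969 and 617 TPM at 2 h, 599 and 465 TPM at 4 h, 475 and 375 TPM at 6 h, 309 and 330 TPM at 9 h, and 321 and 278 TPM at 12 h. LPS libraries were under mock libraries at every time from 2 h and overlapped them at 1 h.

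The LPS mean of *Alox5ap* was 66.0% of the mock mean at 1 h, 43.2% at 4 h, 35.1% at 6 h, 24.3% at 9 h and 23.1% at 12 h. Log2 differences at 1 h (-0.70 ± 0.34 SE, adjusted p = 0.29) and 2 h (-0.59, adjusted p = 0.29) did not pass the test. Those at 4 h (-1.22, adjusted p = 0.0092), 6 h (-1.49, adjusted p = 0.0021), 9 h (-2.04, adjusted p = 1.7e-04) and 12 h (-2.12, adjusted p = 1.3e-04) did. Without LPS library 2 at 4 h the value was -1.04 (adjusted p = 0.085), which ended that call, and without LPS library 1 at 1 h it was -1.32 and passed (adjusted p = 0.019). Library 1 was higher in 11 of 13 groups.

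*Lta4h*, leukotriene A4 hydrolase, also fell. It was at 372 and 595 TPM at 0 h and at 352 to 661 TPM in mock libraries (median 417 TPM). With LPS it was at 388 and 645 TPM at 1 h, 285 and 388 TPM at 2 h, 152 and 201 TPM at 4 h, 56.9 and 82.1 TPM at 6 h, 38.4 and 126 TPM at 9 h, and 52.4 and 66.6 TPM at 12 h. The arms overlapped at 1 and 2 h, and every LPS library from 4 h on was under every mock library. Library 2 was higher in 11 of 13 groups.

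The LPS mean of *Lta4h* went from 128% of the mock mean at 1 h and 66.6% at 2 h to 41.8% at 4 h, 13.2% at 6 h, 18.4% at 9 h and 13.8% at 12 h. Log2 differences were 0.31 ± 0.45 (SE) at 1 h and -0.56 at 2 h, neither past the test. They were -1.26 at 4 h (adjusted p = 0.035), -2.87 at 6 h (adjusted p = 7.9e-05), -2.65 at 9 h (adjusted p = 1.9e-04) and -2.82 at 12 h (adjusted p = 1.2e-04). The 4 h call ended when any 1 of its 4 libraries was left out: -1.13 without mock library 1 (adjusted p = 0.16), -1.40 without mock library 2 (adjusted p = 0.076), -1.06 without LPS library 1 (adjusted p = 0.16) and -1.47 without LPS library 2 (adjusted p = 0.067). With a replicate term in the fit of all libraries, *Lta4h* stayed called lower at 4 h. *Ltc4s*, the leukotriene C4 synthase, is not analysed here.

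**Figure D3:**
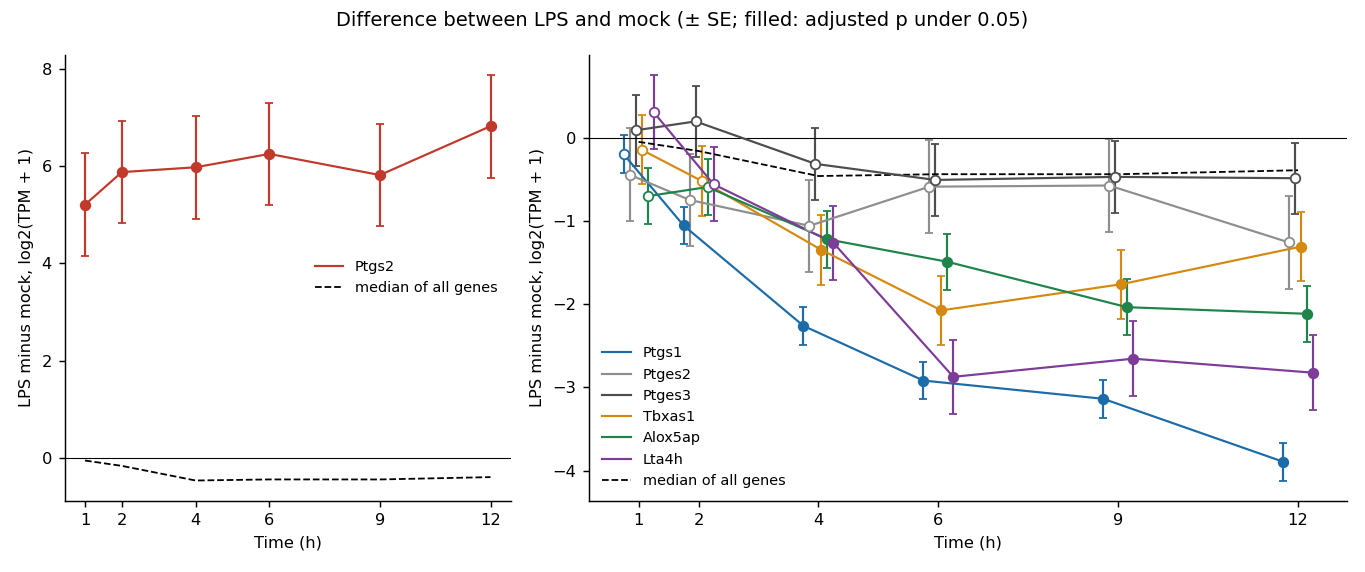
LPS minus mock on the log2(TPM + 1) scale with its standard error by time in hours, *Ptgs2* on the left and the other 6 measured members on the right; filled points passed the test (adjusted p under 0.05) and the dashed line is the median of all 3147 genes. *Ptgs2* stays between 5.21 and 6.82, and *Ptgs1* reaches -3.89, while the *Ptges3* points lie within 1 SE of the dashed line.

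Counted together, 5 of the 7 members passed the F test over the 6 times, where 57.2% of all genes did, so that count is no result about these genes in particular. At 1 h, 1 member rose (3.27% of all genes were called higher) and 0 fell (0.794% were called lower; 0 members were lower at an unadjusted p under 0.05 in limma). At 2 h, 1 rose (6.39% of genes) and 1 fell (8.04% of genes). From 4 h the count was 1 rise and 4 falls at each time. The background of rises was 8.74% at 4 h, 11.2% at 6 h, 10.1% at 9 h and 10.0% at 12 h, and that of falls was 29.2%, 30.0%, 30.0% and 26.8%.

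Falls were thus common in the whole table. LPS lay under mock without overlap in 25.3%, 35.4%, 58.2%, 50.4%, 47.9% and 49.3% of all genes from 1 to 12 h. Members of which this held numbered 0, 2, 5, 4, 5 and 6 of 7. LPS lay over mock without overlap in 23.5%, 18.8%, 15.5%, 18.7%, 15.6% and 19.1% of all genes, and for 1 member at each time. The median gene was at -0.05 at 1 h, -0.16 at 2 h, -0.46 at 4 h, -0.44 at 6 h, -0.44 at 9 h and -0.39 at 12 h, and the median of the 7 members was at -0.14, -0.56, -1.22, -1.49, -1.76 and -1.31. Relative to the median gene at 12 h, *Ptgs1* was at -3.50, *Lta4h* at -2.43, *Alox5ap* at -1.72, *Tbxas1* at -0.92, *Ptges2* at -0.87, *Ptges3* at -0.10 and *Ptgs2* at 7.21. Median-ratio rescaling of the libraries moved the median of all genes at 4 h to -0.01 and left *Ptgs1* as the only member that fell then (-1.82); *Tbxas1* (-0.90, adjusted p = 0.12), *Alox5ap* (-0.77, adjusted p = 0.098) and *Lta4h* (-0.81, adjusted p = 0.23) no longer passed, and nor did *Tbxas1* at 12 h (-0.94, adjusted p = 0.087). Under it, 52.4% of the called genes at 4 h were higher with LPS, against 23.1% as deposited, and at 12 h 54.7%, against 27.2%. Quantile normalization kept every call of a member at the 6 times. Under these scalings the sign of the small differences of *Ptges2* and *Ptges3* changed at some times, and no sign of a called member did.

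The LPS effect was then compared between late (6, 9 and 12 h) and early (1 and 2 h) times. It was more negative late for 4 members, where 22.2% of all genes were, and more positive for none, where 8.17% were (limma; 0 members at an unadjusted p under 0.05). *Ptgs1* went from a mean of -0.63 to -3.31 (difference -2.69 ± 0.21 SE, adjusted p = 2.3e-07) and *Lta4h* from -0.13 to -2.78 (-2.66 ± 0.41, adjusted p = 1.3e-04). *Tbxas1* went from -0.33 to -1.71 (-1.38 ± 0.38, adjusted p = 0.011) and *Alox5ap* from -0.65 to -1.88 (-1.23 ± 0.31, adjusted p = 0.0065). With quantile normalization the *Tbxas1* difference was -1.09 (adjusted p = 0.056).

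In mock cells, no member passed the test between 12 h and 0 h, where 0.00% of all genes did (limma; 70 genes and 1 member had an unadjusted p under 0.05). That member was *Ptgs1*, whose 12 h mock libraries (85.1 and 99.8 TPM) were both under the 0 h libraries (log2 difference -0.61 ± 0.23 SE, adjusted p = 1.0). The other 6 members were between -0.40 and 0.83.

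The order of levels also changed. At 0 h, mean levels ran from *Alox5ap* (1296 ± 284 TPM, SD, n = 2) through *Lta4h* (484 ± 158 TPM), *Ptges3* (306 ± 115 TPM), *Tbxas1* (250 ± 111 TPM), *Ptgs1* (142 ± 2.53 TPM) and *Ptges2* (26.9 ± 1.41 TPM) to *Ptgs2* (1.05 ± 0.845 TPM). The libraries of *Lta4h* and *Ptges3* overlapped, as did those of *Ptges3* and *Tbxas1*; the other neighbours did not. At 12 h of LPS the order was *Ptgs2* (447 ± 305 TPM), *Alox5ap* (299 ± 30.2 TPM), *Ptges3* (167 ± 29.3 TPM), *Tbxas1* (72.4 ± 7.38 TPM), *Lta4h* (59.5 ± 10.1 TPM), *Ptges2* (9.65 ± 8.03 TPM) and *Ptgs1* (5.37 ± 1.497 TPM). There, *Ptgs2* overlapped *Alox5ap* and *Ptges2* overlapped *Ptgs1*.

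Across the 13 group means, the levels of the 4 members that fell were alike, with Pearson's r from 0.93 (*Tbxas1* and *Alox5ap*) to 0.98 (*Ptgs1* and *Lta4h*), and *Ptgs2* ran against them, from -0.79 with *Lta4h* to -0.91 with *Alox5ap*. This was not particular to the 4. *Ptges3* was at 0.93 with both *Ptgs1* and *Lta4h*, 0.90 with *Tbxas1* and 0.85 with *Alox5ap*. *Ptges2* was at 0.81 (*Lta4h*) to 0.87 (*Alox5ap*) with the 4. Against *Ptgs2*, *Ptges2* was at -0.88 and *Ptges3* at -0.63. These are descriptions over groups that share a time course. The genes most like *Ptgs2* were *Irg1* (0.994), *Slfn2* (0.990) and *Nampt* (0.990), those most like *Ptgs1* were the row naming *Lmnb1* (0.996), *Gda* (0.994) and *Cdk1* (0.990), and those most like *Lta4h* were *Hist1h1b* (0.993), *Pa2g4* (0.992) and *Prcp* (0.990). For *Tbxas1* they were *Snx5*, *Iars* and *1300001I01Rik* (0.988 to 0.990), and for *Alox5ap* they were *Gusb*, *Phb* and *Rpn1* (0.989 to 0.990). For the members that did not pass the test, the closest genes had lower values, *Ptges3* up to 0.973 with the row naming *Ddx3x* and *Ptges2* up to 0.943 with *Mcm2*.

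Of 93 further eicosanoid genes in a fixed list, 29 had an RNA row and 17 of these passed the F test (57.2% of all genes did). The list counted 1 rise at 1 h, 1 at 2 h, 2 at 4 h, 3 at 6 h, 3 at 9 h and 2 at 12 h, and its falls numbered 1, 2, 8, 9, 11 and 7; of all genes, 11.2% rose and 30.0% fell at 6 h. Its median log2 difference was -0.54 at 6 h and -0.60 at 12 h. The 12 that passed with the largest differences are described here.

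Upstream of the cyclooxygenases, *Pla2g4a*, the cytosolic phospholipase A2 that frees arachidonic acid, rose to 53.3 and 39.5 TPM at 12 h against 12.3 and 18.1 TPM in mock (1.56 ± 0.23 SE, adjusted p = 5.9e-05). *Acsl1*, a long-chain acyl-CoA synthetase, rose to 982 and 702 TPM against 43.8 and 36.4 TPM (4.34 ± 0.24, adjusted p = 1.9e-09). *Pla2g15*, the lysosomal phospholipase A2, fell to 10.6 and 12.6 TPM at 4 h against 89.9 and 102 TPM (-2.94 ± 0.22, adjusted p = 2.6e-08) and was at -0.42 at 12 h (adjusted p = 0.14). *Mgll*, monoacylglycerol lipase, fell to 67.8 and 104 TPM at 6 h against 296 and 533 TPM (-2.22 ± 0.39, adjusted p = 2.4e-04) and was at -0.75 at 12 h (adjusted p = 0.15). Of the 10 measured genes of phospholipases and acyl transfer, 6 passed the F test, where 57.2% of all genes did.

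In the leukotriene branch, *Alox5*, which encodes 5-lipoxygenase itself, fell to 3.51 and 1.35 TPM at 12 h against 28.3 and 30.1 TPM in mock (-3.21 ± 0.42 SE, adjusted p = 1.7e-05). *Cotl1*, a coactosin-like protein that binds 5-lipoxygenase, fell to 498 and 563 TPM against 1776 and 1905 TPM (-1.79 ± 0.18, adjusted p = 1.0e-06). *Mgst1*, a microsomal glutathione transferase, fell at 9 h, to 112 and 59.8 TPM against 219 and 229 TPM (-1.44 ± 0.48, adjusted p = 0.024). These 3, of the 6 list genes measured in that class, passed the F test, where 57.2% of all genes did. The members *Alox5ap* and *Lta4h* passed it too.

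In the list's classes named for prostanoid synthases and for breakdown and transport, 4 genes are named by the rule, all 4 lower with LPS. The rule takes the largest differences, and 30.0% of all genes fell at 6 h, 30.0% at 9 h and 26.8% at 12 h. *Cbr3*, a carbonyl reductase, fell to 9.88 and 6.35 TPM at 6 h against 47.5 and 38.3 TPM (-2.29 ± 0.34 SE, adjusted p = 4.6e-05), and *Cbr1*, which can reduce prostaglandin E2, fell at 9 h, to 14.7 and 6.84 TPM against 30.6 and 38.4 TPM (-1.67 ± 0.54, adjusted p = 0.020). *Ptgr2*, prostaglandin reductase 2, fell to 6.36 and 5.38 TPM at 6 h against 19.9 and 21.3 TPM (-1.66 ± 0.27, adjusted p = 1.3e-04). *Ephx1*, the microsomal epoxide hydrolase, fell to 18.4 and 9.58 TPM at 12 h against 106 and 104 TPM (-2.89 ± 0.40, adjusted p = 3.3e-05). *Fpr2*, a formyl peptide receptor that also binds lipoxin A4 and was the only receptor of the list with an RNA row, rose to 911 and 2380.4 TPM at 9 h against 422 and 507 TPM (1.67 ± 0.44, adjusted p = 0.0068).

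**Figure D4:**
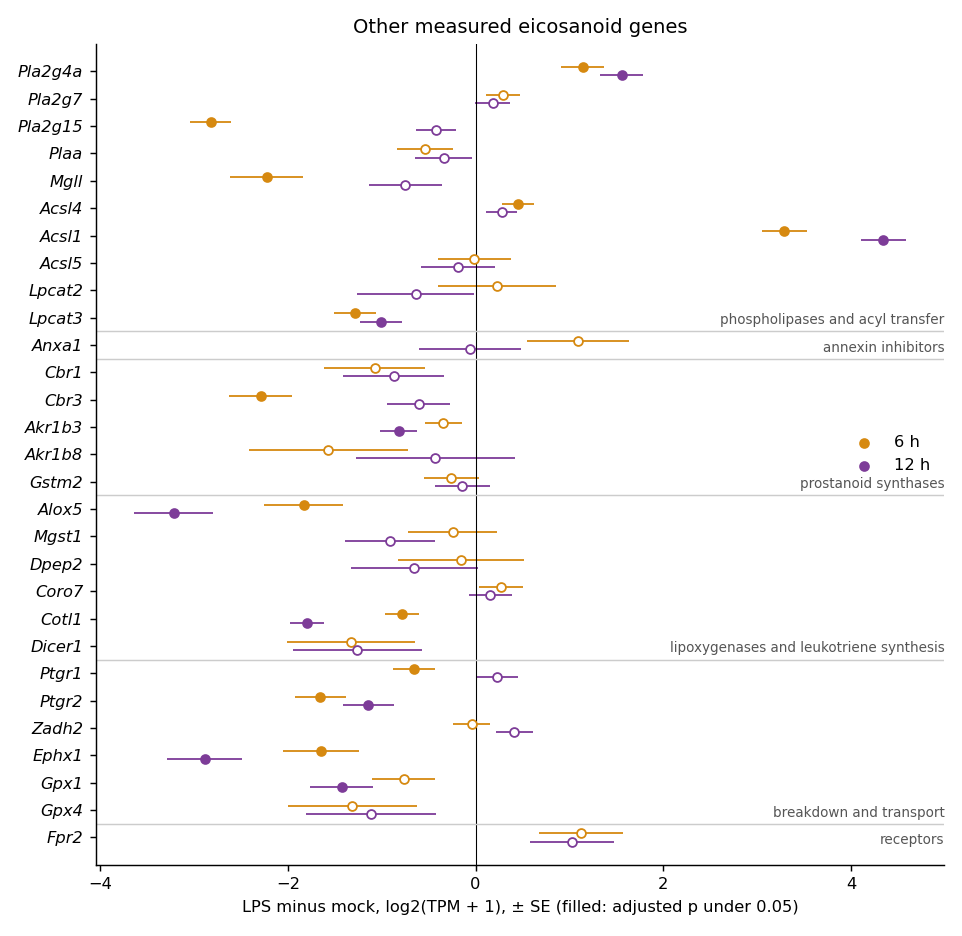
LPS minus mock on the log2(TPM + 1) scale with its standard error at 6 h (orange) and 12 h (purple) for the 29 other eicosanoid genes with an RNA row, grouped by role; filled points passed the test (adjusted p under 0.05). *Acsl1* (4.34 at 12 h) and *Pla2g4a* (1.56) lie to the right, *Alox5* (-3.21) and *Ephx1* (-2.89) to the left.

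Some markers of other cell types also changed with LPS, and their part in these results was not tested. Macrophage markers passed the F test in 5 of 8 rows (57.2% of all genes did) and included *Mrc1*, which fell to 19.3 and 24.5 TPM at 12 h against 233 and 335 TPM in mock (-3.62 ± 0.27 SE, adjusted p = 3.7e-08), and *Fcgr1*, which rose to 367 and 204 TPM at 9 h against 51.5 and 49.1 TPM (2.42 ± 0.41, adjusted p = 1.9e-04). Eosinophil markers passed in 2 of 5, both lower at 12 h, and neutrophil markers in 1 of 7, *S100a9*, which fell at 12 h. Both counts lie under the 57.2% of all genes. The row of *Ear1* and *Ear10* is listed at 0 in LPS library 2 at 12 h; every other listed marker with an RNA row was above 0 in all libraries of both arms. The platelet marker *Pf4*, relevant to thromboxane synthase as background, did not pass the F test (adjusted p = 0.80). Of the dendritic cell markers, 1 of 6 (*Irf4*) passed it.

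In resting cells, the 6 members in the footprint table were all found on ribosomes. Footprint values were 638 and 607 TPM for *Alox5ap*, 225 and 288 TPM for *Ptges3*, 193 and 201 TPM for *Tbxas1*, 171 and 187 TPM for *Lta4h*, 111 and 117 TPM for *Ptgs1*, and 18.9 and 15.2 TPM for *Ptges2*. *Alox5ap* was over 96.3% of the 6250 genes and *Ptges2* over 32.0%. The order was that of 0 h RNA except for *Lta4h*, which ranked behind *Alox5ap* alone by RNA and behind *Ptges3* and *Tbxas1* too by footprints. No neighbours in that order overlapped.

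The footprint level was then set against 0 h RNA over the 2739 genes in both tables, with the median gene of every library set to 0. The log2 ratio was 0.62 ± 0.35 (SE) for *Ptges3*, 0.56 ± 0.32 for *Tbxas1*, 0.52 ± 0.23 for *Ptgs1*, 0.19 ± 0.24 for *Ptges2*, -0.21 ± 0.24 for *Alox5ap* and -0.56 ± 0.32 for *Lta4h*. None of the 6 passed the test (limma, adjusted p from 0.13 to 0.55), where 27.0% of all genes did; 1240 genes and 0 members had an unadjusted p under 0.05. The ratios lay between the 24.5th percentile of all genes (*Lta4h*) and the 72.6th (*Ptges3*). Without 0 h RNA library 1 the ratio was 0.96 for *Tbxas1*, 0.43 for *Ptgs1* and -0.96 for *Lta4h*. Without 0 h RNA library 2 it was 1.08 for *Ptges3* and 0.61 for *Ptgs1*. With 1 RNA library left, the spread came from the footprint libraries alone, so calls in these fits are no result about the members.

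**Figure D5:**
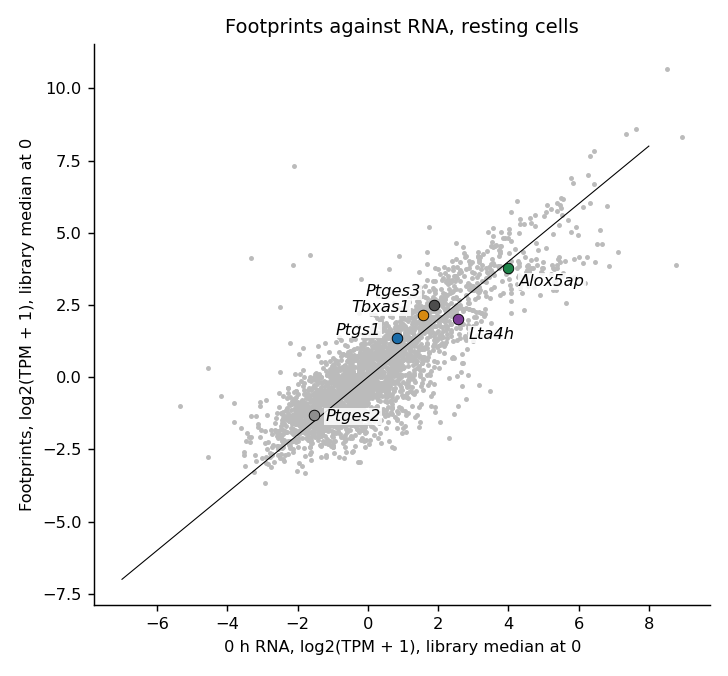
Mean footprint level against mean 0 h RNA level in resting cells, both as log2(TPM + 1) with each library's median at 0, for 2739 genes (grey) and the 6 members in both tables; the line marks equal values. The members lie within the cloud, *Ptges3*, *Tbxas1* and *Ptgs1* over the line by 0.52 to 0.62 and *Lta4h* under it by 0.56.

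Among the other eicosanoid genes with a footprint row and no RNA row, the highest were *Ltb4r1*, the high-affinity leukotriene B4 receptor (121 and 137 TPM), *Fpr1*, a formyl peptide receptor (94.6 and 101 TPM), *Daglb*, a diacylglycerol lipase (92.3 and 97.5 TPM), *Mgst3*, a microsomal glutathione transferase (88.0 and 88.5 TPM), *Ptgir*, the prostacyclin receptor (80.4 and 77.3 TPM), and *Cyp4f18*, a cytochrome P450 (52.6 and 55.4 TPM). Of the 93 genes, 46 had a footprint row. Footprints were taken from resting cells alone, so the change of ribosome occupancy with LPS is not analysed here.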

How the data were processed

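Polyadenylated, strand-specific RNA and ribosome footprints were sequenced by the authors, per the labels' protocols. The deposited unit of RNA is TPM, obtained by the authors with RSEM 1.2.3 and Bowtie 0.12.7 on mm9, per the submitters' processing notes. For footprints the same notes name Bowtie2 and TopHat2; the unit of the deposited values is not given in the sources used here and was taken as TPM, since both columns total 1000000. Depth is unknown. The 0 h columns, repeated under both arm names, were used once. Descriptions of the 4 h samples name another hour than their titles and time fields, which were followed.

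Groups were compared with limma 3.58.1 (R 4.3.3) on log2(TPM + 1) over all 3147 genes, with 13 group means, a variance trend and 13 residual degrees of freedom. The filter (at least 1 TPM in at least 2 libraries) removed no gene. Calls used p-values adjusted by Benjamini and Hochberg's method over all genes, with a threshold of 0.05; errors are moderated standard errors for log2 differences and SD for TPM. Footprints and 0 h RNA were compared with 2 libraries each, without a variance trend. The fit was also run on simulated data. Their noise was independent between libraries, without the shift by library number seen in these data, so they cannot vouch for the fit here. Alternatives were other pseudocounts, filters, scalings, a replicate term, the compared groups alone, and each library left out.

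All 8 members are described; for each, the 3 genes with the highest Pearson's r over group means were named, as were the 12 list genes past the F test with the largest differences and the 6 highest footprint-only ones. *Fkbp4*, *Dnaja1*, the Hsp90 genes and the markers were named after their values were seen. Members, lists and tests were chosen with earlier results of these data known. Figures were drawn with matplotlib 3.10.9.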

Additional observations from a re-analysis of the deposited data

Results flagged for a closer look

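The difference between LPS and mock changed between the early times (mean of 1 and 2 h) and the late times (mean of 6, 9 and 12 h) for 4 members, by the test of the difference itself (limma, adjusted over 3147 genes). For *Ptgs1* it was lower late by -2.69 ± 0.21 (SE, log2; adjusted p = 2.3e-07) and for *Lta4h* by -2.66 ± 0.41 (adjusted p = 1.3e-04). For *Tbxas1* it was lower late by -1.38 ± 0.38 (adjusted p = 0.011) and for *Alox5ap* by -1.23 ± 0.31 (adjusted p = 0.0065). The early and late values share no library. Of all genes, 22.2% were called with a negative difference and 8.17% with a positive one.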

How the results depend on the processing

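Of 216 repeats of called member values under the other alternatives, 208 stayed called in the same direction and 8 lost the call; of 172 repeats with 1 library left out, 159 stayed called and 13 did not. The 216 include the fit without the filter on low values. That filter removed no gene, so these repeats equal the reported fit and could not change. With 1 library left out, the lone sample of its group is assumed to vary like the others. TPM without depth and 2 libraries per group limit the precision.

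At 1 h, 1 member was called as reported, 0 with a pseudocount of 0.1 (*Ptgs2* 5.78, adjusted p = 0.052), 0 with only the compared groups in the fit (adjusted p = 0.056) and 2 with the replicate block; at 2 h, 2 were called and 1 with the compared groups alone (*Ptgs1* adjusted p = 0.080); at 4 h, 5 were called and 2 after median-ratio rescaling. Without centring, 2 members were called for footprints (*Alox5ap* -1.04 and *Lta4h* -1.39), and *Ptgs1* (-0.31), *Ptges2* (-0.64), *Ptges3* (-0.22) and *Tbxas1* (-0.27) turned negative. Over all genes, calls went from 128 to 191 (quantile normalization), 544 (block) or 21 (compared groups) at 1 h, from 454 to 871 or 231 at 2 h under the last 2, from 1193 to 1796 at 4 h (block), from 1262 to 411 at 9 h (compared groups), from 956 to 1545 for late minus early (block) and from 740 to 1294 for footprints (no centring). At 1 h, 58.6% of called genes were higher with LPS under quantile normalization, 64.7% with the block and 80.5% as reported; at 2 h, 60.8% after median-ratio rescaling and 44.3% as reported.

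Median-ratio rescaling turned *Ptges3* at 4 h to 0.14 and *Ptges2* late minus early to 0.083. Quantile normalization turned *Ptges3* at 1 h to -0.063 and *Ptges2* to 0.071 at 6 h, 0.19 at 9 h and 0.29 for late minus early. None of these was called, and the cause was not tested.

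Leaving out 1 library, members called ranged from 0 to 2 at 1 h, 1 to 2 at 2 h, 2 to 4 at 4 h, 4 to 5 at 12 h, 5 to 6 by the F test and 0 to 3 for footprints; they stayed at 5 at 6 and 9 h, 4 for late minus early and 0 for mock 12 h against 0 h. Counts over all genes ranged from 52 to 329 at 1 h, 255 to 281 at 2 h and 192 to 2057 for footprints. Uncalled values that crossed 0 were *Tbxas1* for mock 12 h against 0 h (-0.87 to 0.068), *Ptges3* for mock 12 h against 0 h (-0.73 to 0.050), *Alox5ap* for mock 12 h against 0 h (-0.21 to 0.24), *Lta4h* for mock 12 h against 0 h (-0.49 to 0.19), *Ptges3* at 1 h (-0.19 to 0.37), *Tbxas1* at 1 h (-0.32 to 0.028), *Ptgs1* at 1 h (-0.40 to 0.0015), *Ptges2* for late minus early (-0.55 to 0.13), *Ptges2* at 1 h (-1.02 to 0.13), *Lta4h* at 1 h (-0.059 to 0.67), *Ptges3* at 2 h (-0.27 to 0.66), *Ptgs2* for late minus early (-0.10 to 1.60), *Ptges3* at 4 h (-0.68 to 0.051), *Ptges2* at 6 h (-1.32 to 0.15).

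The titles' numbers 1 and 2 do not by themselves pair the samples. Over genes, at a given time the difference between numbers in the LPS arm correlated with that in the mock arm with r of 0.23 to 0.69, and between any 2 of the 13 groups with 0.05 to 0.83; 62.8% of genes differed by number. With the replicate block, *Alox5ap* at 1 h (adjusted p = 0.042), *Ptges2* at 4 and 12 h (0.027 and 0.011), and *Ptges3* at 6, 9 and 12 h and for late minus early (0.0097, 0.015, 0.013 and 0.0015) were also called lower.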
